A study of Mus musculus with 9 samples.

Results

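The Meis and Pbx genes encode homeodomain transcription factors, and 6 of them were read here at their transcription start sites (TSS): Meis1, Meis2, Meis3, Pbx2, Pbx3 and Pbx4. They were chosen by gene symbol, because Meis1 is known as a regulator of the arrest of heart muscle cell division after birth. Each had 1 row among the 33844 TSS regions of the deposited table, and all 6 passed the filter on low counts, which 33747 regions passed. The assay was ATAC-seq: a transposase inserts sequencing adapters where chromatin is open, so the count of a region reads its accessibility and not the RNA of the gene. The groups were cardiomyocytes of CD1 (ICR) mice at postnatal day 1 (P1), day 14 (P14) and day 56 (P56), with 3 libraries at each age and no genotype or drug that differs between them. Hearts were pooled for each library, 12 at P1 and 6 to 7 at the later ages, and nuclei were sorted by an antibody against Pcm1, a centrosomal protein that lies at the nuclear envelope of cardiomyocytes. The growth protocol mentions surgery, and the labels do not say whether these hearts had any.

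MEIS and PBX proteins belong to the TALE class of homeodomain factors, named for an insertion in the loop of the homeodomain. A MEIS protein binds a PBX protein, PBX in turn binds many HOX proteins, and the complexes occupy composite DNA sites. In the mouse heart, loss of Meis1 prolongs cardiomyocyte division after birth, extra Meis1 shortens it, and the Cdkn2a-Cdkn2b locus and Cdkn1a, which encode inhibitors of cyclin-dependent kinases, are described as its targets. Hoxb13 is described as its partner there, controlled by the phosphatase calcineurin.

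TSS counts totalled 481217 to 893032 per library at P14, against 1414979 to 2167369 at P1 and 874639 to 1468352 at P56, so the P14 values rest on the fewest reads. The 12 cardiomyocyte markers had a mean level of 49.8 to 98.0 CPM (counts scaled to library size with TMM composition factors) in P1 libraries, 74.7 to 94.0 in P14 libraries and 87.5 to 215 in P56 libraries. The 32 markers of endothelial cells, fibroblasts, leukocytes and smooth muscle were also above 0 in every library, in a table whose rows all average at least 10 counts. Mean levels of these 4 lists ranged from 25.8 to 56.2 CPM over all libraries. From P1 to P56, 7 of the 12 cardiomyocyte markers rose by the test given below, against 1.72% of all regions. Of the 32 other markers 1 rose, with medians per list between -0.36 (fibroblast) and 0.22 (smooth muscle, log2). The smooth muscle list did change level: its lowest P56 library had 45.1 CPM, and its highest P1 library 35.1 CPM. At an unadjusted p below 0.05 were 5 of 8 fibroblast markers and 3 of 8 smooth muscle markers. So were 2 of 8 leukocyte and 1 of 8 endothelial markers, 10 of the 12 cardiomyocyte markers and 21.6% of all regions. P1 replicate 1 had the lowest cardiomyocyte marker level (49.8 CPM) and P56 replicate 2 the highest (215 CPM). Because nuclei are read in bulk, fewer nuclei with an open site and less cutting per nucleus cannot be told apart, and since the width of the TSS regions is not stated, levels are compared between stages and not between genes.

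None of the 6 genes passed the test in any comparison of stages. The test was edgeR's quasi-likelihood F test with Benjamini-Hochberg adjustment over all regions and a threshold of 0.05. From P1 to P56 it called 0 of 6 members, against 2.53% of all regions, and 0 members had an unadjusted p below 0.05, against 21.6% of all regions. From P1 to P14 it called 0 of 6, against 0.0119% of regions, and 1 member, Pbx2, had an unadjusted p below 0.05, against 8.59%. From P14 to P56 it called 0 of 6, against 0.00296% of regions, and 0 had an unadjusted p below 0.05, against 10.1%. DESeq2 and limma-voom also called 0 of 6 in each comparison. The members' median log2 change was -0.05, 0.02 and -0.04 in these 3 comparisons, and that of all regions -0.01, 0.00 and -0.02. With 3 pooled libraries a stage, p-values measure the spread between these pools.

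**Figure D1:**
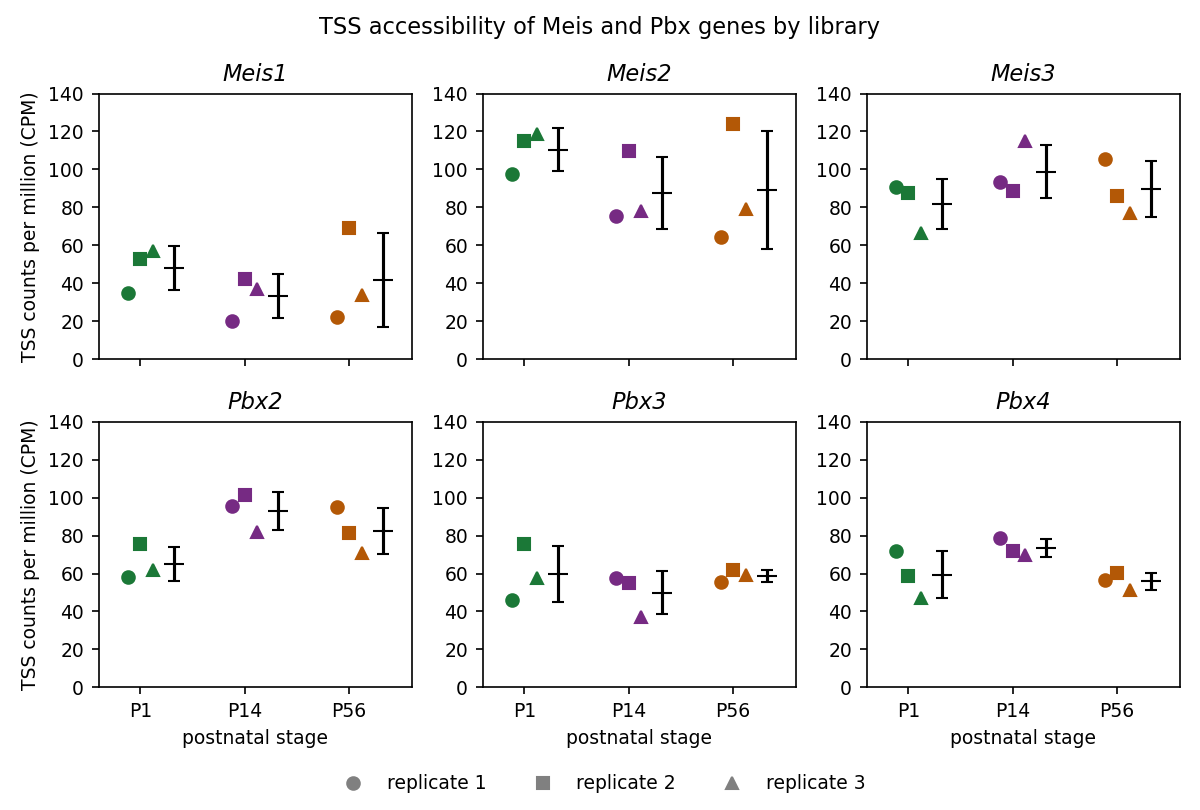
TSS accessibility (CPM) of each gene at P1, P14 and P56, with 1 point for each library, its shape giving the replicate number, and a bar beside them for the mean ± SD of 3 libraries. The stages overlap for every gene except Pbx2 between P1 and P14 and Pbx4 between P14 and P56; P56 replicate 2 is the top point for Meis1 and Meis2.

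Meis1 (ENSMUSG00000020160, GRCm38 chr11:18880428-19019651, minus strand) varied most within P56. Its TSS level was 34.8, 52.8 and 56.7 CPM in the P1 libraries, 20.0, 42.2 and 36.9 CPM in the P14 libraries, and 22.0, 69.2 and 33.8 CPM in the P56 libraries, in the order of replicates 1 to 3. The highest of all 9 values and 2 of the 3 lowest were P56 libraries, and the stages overlapped in every comparison. Over 3 libraries each, P1 averaged 48.1 ± 11.7 CPM (SD), P14 averaged 33.0 ± 11.6 and P56 averaged 41.7 ± 24.6. From P1 to P56 the log2 change was -0.17 ± 0.296 (SE, edgeR adjusted p = 0.769), with a 95% interval from -0.77 to 0.43, which holds no change as well as a fall to 0.587 of the P1 level. From P1 to P14 it was -0.61 ± 0.339 (adjusted p = 0.621, interval -1.30 to 0.08), and from P14 to P56 0.44 ± 0.352 (0.707, interval -0.28 to 1.16). With each library left out in turn, the P1 to P14 change ranged from -0.84 to -0.27, the smallest without P14 replicate 1, and was not called. The P14 values rest on 18 to 20 reads in each library. The non-coding gene Gm16141 lies within Meis1 and G630016G05Rik overlaps Meis2, and where their regions overlap the reads cannot be told apart.

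The Meis1 result turned on single libraries. Without P56 replicate 2 the change from P1 to P56 was -0.80 (edgeR adjusted p = 0.174), and without P56 replicate 1 it was 0.14 (0.805). Without P1 replicate 3 it was -0.03, without P1 replicate 1 -0.38, without P56 replicate 3 -0.05 and without P1 replicate 2 -0.11, none of them past the threshold. Leaving out both P1 replicate 1 and P56 replicate 2 gave -1.02 (adjusted p = 0.00991), and the P1 to P14 change became -0.86 (0.0477). Those libraries hold the lowest P1 value and the highest P56 value of Meis1, so leaving them out enlarges a fall by construction, and the pair was known from earlier results of these data. They are also the libraries with the lowest and the highest cardiomyocyte marker level, whose part in the result was not tested.

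Meis2 (ENSMUSG00000027210, chr2:115861264-116067537, minus strand), which mouse neural crest cells need to form the outflow tract of the heart, had values much like those of Meis1. Its TSS level was 97.3, 115 and 119 CPM in the P1 libraries, 75.5, 110 and 77.9 CPM at P14, and 64.3, 124 and 79.2 CPM at P56. Replicate 2 was the highest library at P14 and P56, and 2 of 3 libraries at each of these ages lay below every P1 library. P1 libraries averaged 110 ± 11.4 CPM (SD, n = 3), P14 libraries 87.7 ± 19.1 and P56 libraries 89.2 ± 31.2. The log2 change from P1 to P56 was -0.29 ± 0.193 (SE, edgeR adjusted p = 0.385, interval -0.68 to 0.10), that from P1 to P14 -0.35 ± 0.208 (0.645, interval -0.77 to 0.07) and that from P14 to P56 0.06 ± 0.215 (0.955, interval -0.38 to 0.50). The P56 to P1 interval corresponds to 0.623 to 1.07 times the P1 level.

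The change of Meis2 from P1 to P56 was -0.63 (edgeR adjusted p = 0.083) without P56 replicate 2, and between -0.10 and -0.39 without any other single library. Without both P1 replicate 1 and P56 replicate 2 it was -0.73 and was called (adjusted p = 0.00809). These are again the lowest P1 and the highest P56 library of the gene, so this call carries the same reservation as that of Meis1.

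Across the 9 libraries the log2 CPM of Meis1 and Meis2 had a Pearson r of 0.90 and a Spearman rho of 0.93, and an r of 0.88 over the 8 libraries other than P56 replicate 2. Given as a description, this r was above that between Meis1 and 99.9% of 14534 other regions. These had a mean count of at least 20, and members and predicted or clone-named genes were left out. The deviations of the genes from their stage means had an r of 0.91, so the likeness lay within stages. Replicate 1 was the lowest library at every stage for both genes. The other 14 pairs of members had r between -0.59 and 0.61, with Meis3 and Pbx4 at 0.61 and Meis2 and Meis3 at -0.59. All these values share the libraries' depth and scaling.

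**Figure D2:**
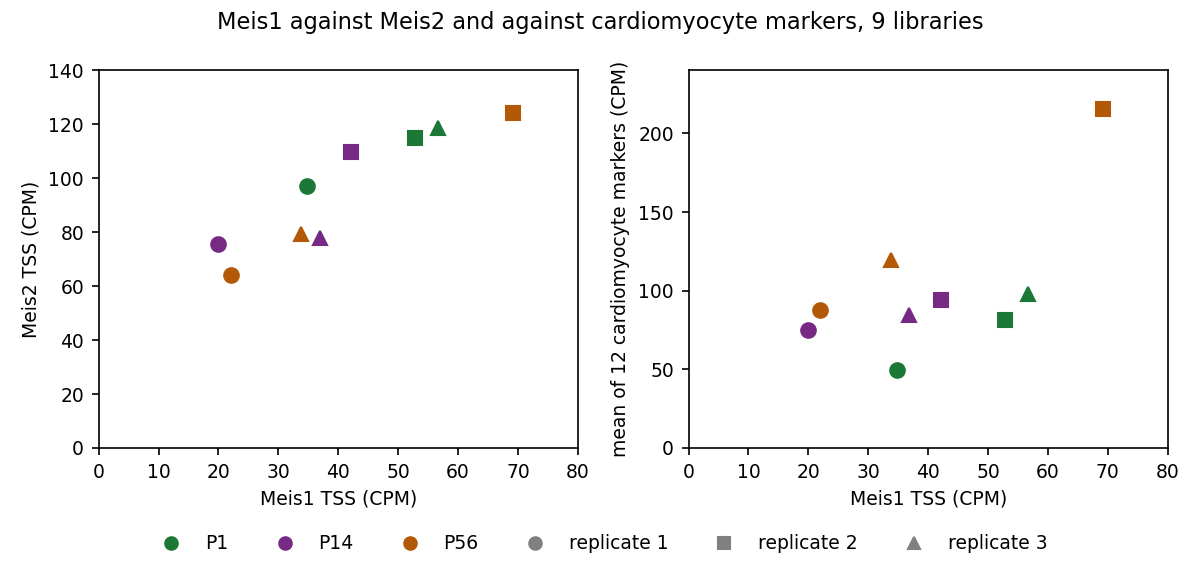
Each point is 1 of 9 libraries, coloured by stage and shaped by replicate number; the horizontal axes give the Meis1 TSS level, and the vertical axes the Meis2 TSS level (left) and the mean level of 12 cardiomyocyte markers (right), all in CPM. Meis1 and Meis2 rise together over libraries of all stages (r = 0.90), and P56 replicate 2 stands at the top of both plots, with 69.2 CPM for Meis1 and 215 CPM for the markers.

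The regions most like Meis1 over the 9 libraries, by Pearson r of log2 CPM, were Tnni3k (0.96), a cardiac kinase that binds troponin I, Pln (0.95), phospholamban, which restrains the calcium pump of the sarcoplasmic reticulum, and Acvr2a (0.94), an activin receptor. Pln is also 1 of the 12 cardiomyocyte markers. Those most like Meis2 were Bhlhe40 (0.92), a clock-linked repressor, Gnpda2 (0.90) and Pcmtd1 (0.90). These ranks were picked from the same 14534 regions, without predicted or clone-named genes, with 9 values each and are descriptions.

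Meis3 (ENSMUSG00000041420, chr7:16174012-16186510, plus strand), best known for patterning the hindbrain of frogs and fish, ranged from 66.7 to 115 CPM over the 9 libraries. Its TSS level was 90.8, 87.7 and 66.7 CPM at P1, 93.3, 88.6 and 115 CPM at P14, and 106, 85.8 and 76.9 CPM at P56. No stage was separate from another. The log2 change from P1 to P56 was 0.14 ± 0.179 (SE, edgeR adjusted p = 0.684, interval -0.23 to 0.50), that from P1 to P14 0.27 ± 0.189 (0.708) and that from P14 to P56 -0.13 ± 0.193 (0.857). Its interval from P1 to P56 corresponds to 0.854 to 1.41 times the P1 level. Most like it were Acaa1a (r = 0.97), a peroxisomal thiolase, Rsph6a (0.96) and Nrros (0.96).

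Among the Pbx genes, Pbx2 (ENSMUSG00000034673, chr17:34592259-34597400, plus strand) came nearest to a change. Pbx2 is broadly expressed, and mice without it develop without an overt defect. Its TSS level was 58.2, 75.4 and 62.0 CPM at P1, 95.5, 101 and 81.9 CPM at P14, and 95.1, 81.3 and 71.1 CPM at P56. All 3 P14 libraries were above all 3 P1 libraries, which held in 9.02% of all regions, while P14 lay wholly below P1 in 7.87% and the 2 ages were apart either way in 16.9%. P56 overlapped both ages. The log2 change from P1 to P14 was 0.52 ± 0.191 (SE, edgeR adjusted p = 0.515, interval 0.13 to 0.91), a larger value than in 94% of regions. From P1 to P56 it was 0.35 ± 0.181 (adjusted p = 0.254, interval -0.02 to 0.72), and from P14 to P56 -0.17 ± 0.194 (0.806). With each library left out in turn, the first of these changes stayed between 0.43 and 0.63 and was never called.

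The annotated end of Gpsm3 lies 505 bp before the start of Pbx2. The width of the TSS regions is not stated, so whether any Pbx2 reads are shared with a neighbour was not tested. No peak of the deposited list lay over the start site of Meis3, Pbx2 or Pbx4. The TSS rows of these genes therefore read sites outside the peak list.

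Pbx3 (ENSMUSG00000038718, chr2:34171457-34372045), which mice need for the brainstem control of breathing, had 46.1, 75.4 and 57.8 CPM at P1, 57.8, 54.8 and 36.9 CPM at P14, and 55.5, 61.7 and 59.4 CPM at P56. The P56 libraries lay inside the range of the P1 libraries. The log2 change from P1 to P56 was -0.01 ± 0.214 (SE, edgeR adjusted p = 0.991, interval -0.44 to 0.43), that from P1 to P14 -0.22 ± 0.234 (0.824) and that from P14 to P56 0.22 ± 0.242 (0.798). Most like it were Atp6v1c1 (r = 0.94), a subunit of the vacuolar proton pump, Barx2 (0.92), a homeobox gene, and Usp1 (0.92), a deubiquitinase. Most like Pbx2 were Rxra (0.95), the retinoid X receptor alpha, Cldn7 (0.93) and Rfx4 (0.93).

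Pbx4 (ENSMUSG00000031860, chr8:69832476-69872292, plus strand), described mainly in the mouse testis, was highest at P14. Its TSS level was 72.1, 58.9 and 47.3 CPM at P1, 78.9, 71.7 and 69.7 CPM at P14, and 56.4, 60.2 and 51.3 CPM at P56. All 3 P56 libraries lay below all 3 P14 libraries, which held in 6.96% of all regions, while P56 lay wholly above P14 in 7% and the 2 ages were apart either way in 14%. P1 overlapped both ages. The log2 change from P14 to P56 was -0.39 ± 0.217 (SE, edgeR adjusted p = 0.546, interval -0.84 to 0.05), that from P1 to P14 0.31 ± 0.209 (0.694) and that from P1 to P56 -0.09 ± 0.20 (0.831). Between P1 and P56, 0 of the 6 members had stages that did not overlap, against 24.1% of all regions, of which 10.9% were higher at P56 and 13.2% lower. Most like Pbx4 were Atg7 (r = 0.93), an autophagy enzyme, Ceacam2 (0.91) and Msmb (0.91).

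**Figure D3:**
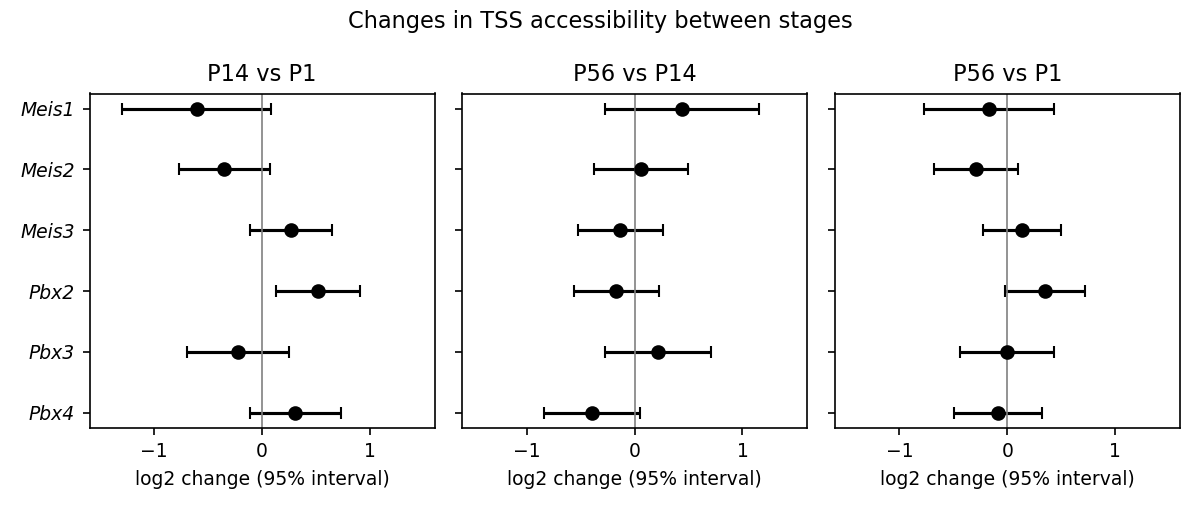
Log2 change in TSS accessibility between stages (horizontal axis) of the 6 genes, with the edgeR estimate as a point and its 95% interval as a bar. All intervals include 0 except that of Pbx2 from P1 to P14, which runs from 0.13 to 0.91 and does not pass after adjustment over all regions.

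Ordered by stage mean, Meis1, Meis2 and Pbx3 were highest at P1 and lowest at P14, while Meis3, Pbx2 and Pbx4 were highest at P14. Meis3 and Pbx2 were lowest at P1, and Pbx4 was lowest at P56. No neighbours in these orders differed past the adjusted threshold.

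The promoter sequence shows what the Meis1 region holds, since a peak of the deposited peak list lies over its start site. RefSeq's GRCm38.p6 promoter table had an entry for 5 of the 6 members, and not for Pbx3. The 250 bases before the start site were searched on both strands for the MEIS core TGACAG, the PBX with HOX site TGATTNAT, the site CCAATAAA of posterior HOX proteins such as Hoxb13, and the CCAAT box, which CCAATAAA contains. Shown are Meis1, whose start site the peak covers, and Meis2 and Pbx4, which hold the CCAATAAA letters; capitals mark all matches, and TTTATTGG and ATTGG are matches on the opposite strand.
Meis1 (chr11:19018970-19019219, minus strand): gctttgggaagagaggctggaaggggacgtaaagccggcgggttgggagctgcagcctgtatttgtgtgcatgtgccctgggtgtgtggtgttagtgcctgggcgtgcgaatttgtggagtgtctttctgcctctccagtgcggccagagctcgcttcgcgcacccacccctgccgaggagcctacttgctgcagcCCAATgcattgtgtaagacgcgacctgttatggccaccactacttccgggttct
Meis2 (chr2:116064620-116064869, minus strand): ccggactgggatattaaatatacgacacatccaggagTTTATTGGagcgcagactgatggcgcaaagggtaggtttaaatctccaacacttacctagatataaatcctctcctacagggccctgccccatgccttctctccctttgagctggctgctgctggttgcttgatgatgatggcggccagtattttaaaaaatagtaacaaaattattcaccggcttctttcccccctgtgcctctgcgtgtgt
Pbx4 (chr8:69832374-69832623, plus strand): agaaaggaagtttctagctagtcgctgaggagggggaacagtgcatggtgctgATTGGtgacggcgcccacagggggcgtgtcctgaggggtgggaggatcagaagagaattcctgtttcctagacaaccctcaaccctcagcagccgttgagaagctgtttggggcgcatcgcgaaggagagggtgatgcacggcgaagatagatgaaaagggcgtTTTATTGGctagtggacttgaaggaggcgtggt

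The match in Meis2 starts 213 bases and that in Pbx4 33 bases before the start site, and the CCAAT box of Meis1 starts 54 bases before it. CCAATAAA occurred in 1.02% of 32851 promoters of the same length, CCAAT in 33.8%, TGACAG in 15.9% and TGATTNAT in 2.82%. Neither TGACAG nor TGATTNAT was found in the 5 windows, and the windows of Meis3 and Pbx2 held none of the 4 motifs. GC content was 59.6% in the Meis1 window, 47.6% in Meis2, 63.6% in Meis3, 77.6% in Pbx2 and 55.6% in Pbx4, against a median of 52.4%. A match is a run of letters and does not show that a factor binds.

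The peak table gave another count at these loci from the same libraries. Within 50 kb of the 6 genes lay 17 peaks, of which 6 were at Meis1, 2 each at Meis2, Meis3 and Pbx4, 4 at Pbx2 and 1 at Pbx3. Fitted over all peaks with edgeR, 0 of these 17 were called from P1 to P56, against 0.444% of all peaks (0.212% higher and 0.232% lower at P56). From P1 to P14 and from P14 to P56 the count was also 0, against 0.00773% in each. At an unadjusted p below 0.05 the count was 1 in each comparison, against 16%, 6.04% and 14.7% of all peaks in the order P56 with P1, P14 with P1 and P56 with P14. No other tool was run on the peaks.

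The peak over the Meis1 start site (chr11:19018490-19019421) followed the TSS row. It had 10.7, 27.7 and 29.5 CPM at P1, 8.77, 15.6 and 12.6 CPM at P14, and 3.94, 31.1 and 13.4 CPM at P56. The lowest library at each stage was again replicate 1, and at P56 the highest was again replicate 2. The TSS row can count the same reads, so this likeness is not an independent reading. In the peak the P56 libraries spanned 3 to 33 reads, so its log2 change of -0.37 ± 0.406 (SE, edgeR adjusted p = 0.664) is imprecise. Without P56 replicate 2 it was -1.43 (adjusted p = 0.388), and without P56 replicate 1 it was 0.08.

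A peak inside Meis1, centred 60.4 kb downstream of the start site (chr11:18958050-18959055), behaved otherwise. It had 25.5, 26.6 and 31.9 CPM at P1, 22.8, 12.5 and 25.3 CPM at P14, and 19.7, 20.7 and 13.4 CPM at P56. All 3 P56 libraries were below all 3 P1 libraries, which held in 10.1% of all peaks, while 8.54% were wholly higher at P56 and 18.6% were apart either way. P56 replicate 2 was close to P56 replicate 1. The log2 change from P1 to P56 was -0.61 ± 0.352 (SE, edgeR adjusted p = 0.381), and it stayed between -0.73 and -0.47 with each library left out. It was not called in any of those fits. The other 4 peaks at Meis1 did not share one direction. From P1 to P56, another peak inside the gene, 11.0 kb downstream of the start site, had a change of 0.31 ± 0.364 (adjusted p = 0.692), and the peak 147 kb downstream had 0.53 ± 0.434 (0.545). The peak 142 kb downstream had -0.25 ± 0.332 (0.725), and that 8.07 kb upstream -0.36 ± 0.339 (0.608). The peaks 142 and 147 kb downstream lie past the end of Meis1, within the non-coding gene 8430419K02Rik.

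**Figure D4:**
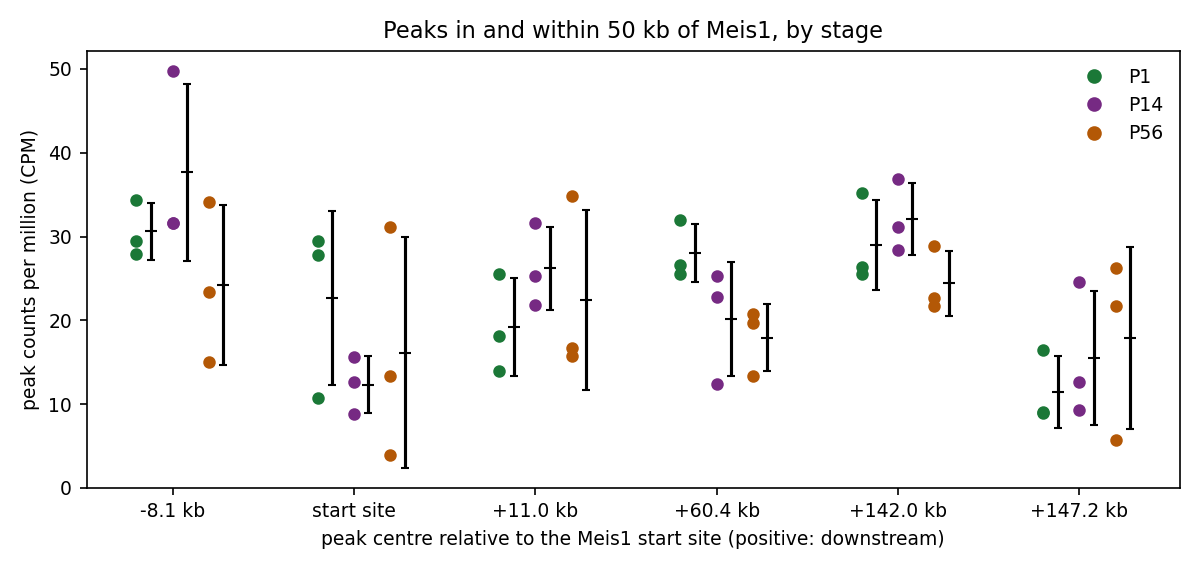
CPM in each library (points, coloured by stage) with mean ± SD of 3 libraries (bars) for the 6 peaks in and within 50 kb of Meis1, ordered by the distance of the peak centre from the start site. The start-site peak has the widest spread at P56, 3.94 to 31.1 CPM, while the peak 60.4 kb downstream is lower in each P56 library than in each P1 library.

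The peak at the 5' end of Meis2 (chr2:116065290-116067923) had 42.0, 68.8 and 81.0 CPM at P1, 43.8, 68.5 and 41.0 CPM at P14, and 43.3, 80.1 and 45.1 CPM at P56. It repeats the order of the Meis2 TSS libraries at P1 and has replicate 2 on top at P14 and P56. Its counts come from the same libraries and may share reads with the TSS row. Its log2 change from P1 to P56 was -0.15 ± 0.286 (SE, edgeR adjusted p = 0.815). The other Meis2 peak, 125 kb inside the gene, had a change of 0.39 ± 0.404 (adjusted p = 0.648). The peak at an end of Pbx3 (chr2:34371755-34373799) had a change of -0.17 ± 0.278 (adjusted p = 0.792).

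A peak inside Pbx4, 35.1 kb past its start (chr8:69866572-69868862), had 50.2, 42.2 and 25.4 CPM at P1, 47.3, 37.4 and 60.0 CPM at P14, and 72.2, 52.8 and 61.8 CPM at P56. All P56 libraries exceeded all P1 libraries, as they did in 8.54% of all peaks. Its log2 change from P1 to P56 was 0.66 ± 0.292 (SE, edgeR adjusted p = 0.247). The other peak near Pbx4 (chr8:69805154-69807797), 24.7 kb from the gene and nearest to Atp13a1, had 81.4, 63.3 and 49.1 CPM at P1, 119, 90.3 and 94.7 CPM at P14, and 73.6, 54.7 and 60.1 CPM at P56. All P14 libraries were above all others. P14 was wholly above P1 in 7.39% of all peaks, below it in 5.64% and apart either way in 13%, and P56 was wholly below P14 in 10%, above it in 9.12% and apart either way in 19.1%. Its log2 change was 0.67 ± 0.275 from P1 to P14 (edgeR adjusted p = 0.742) and -0.71 ± 0.282 from P14 to P56 (0.261).

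None of the peaks analysed lay within 5 kb of Meis3. Its 2 peaks were nearest to the coding genes Slc8a2 and Dhx34, with changes from P1 to P56 of 0.18 (edgeR adjusted p = 0.764) and -0.08 (0.926). The nearest peak to Pbx2, 4.41 kb from it at Rnf5 and Agpat1, had a change of 0.27 ± 0.231 (adjusted p = 0.571).

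Of 12 tested TALE relatives, among them Pknox1 and the Irx genes, 0 were called in any comparison. In the order P56 with P1, P14 with P1 and P56 with P14, 1, 0 and 0 had an unadjusted p below 0.05. Over all regions that share was 21.6%, 8.59% and 10.1% in this order, and 2.53%, 0.0119% and 0.00296% were called. From P1 to P56 the smallest p belonged to Irx5 (log2 change 0.81 ± 0.302, edgeR adjusted p = 0.12), which sets the repolarization gradient of the mouse ventricle, and Tgif1 (-0.43 ± 0.226, 0.266), a repressor of TGF-beta signalling. Irx5 had 7.82, 24.7 and 24.7 CPM at P1 and 28.2, 39.1 and 29.1 CPM at P56, with P1 replicate 1 apart from the rest. Without that library the change was 0.38 (edgeR adjusted p = 0.494), and without P56 replicate 2 as well it was 0.20 (0.773). With the replicate number as a block, Irx5 was called (0.83, adjusted p = 0.0477). Of 32 tested HOX genes, 0 were called in any comparison. In the same order, 1, 2 and 2 had an unadjusted p below 0.05, against 21.6%, 8.59% and 10.1% of all regions. Hoxc11 (0.62, adjusted p = 0.189) and Hoxa9 (-0.46, 0.317) had the smallest p from P1 to P56, and Hoxa9 was -0.22 (0.757) without P56 replicate 2. From P1 to P14, 26 of the 32 HOX genes had a log2 change above 0, with a median of 0.35, against 50% of all regions and a median of 0.00, and none passed. From P14 to P56, 5 of the 32 were above 0, with a median of -0.25, against 48.4% and -0.02. From P1 to P56, 15 were above 0, with a median of -0.02, against 49.3% and -0.01. Of the 12 TALE relatives, 10, 3 and 7 were above 0 in these 3 comparisons.

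Hoxb13, the described partner of Meis1, had 17.8, 22.6 and 22.6 CPM at P1, 23.3, 33.7 and 24.6 CPM at P14, and 22.9, 20.3 and 28.0 CPM at P56. All P14 libraries were above all P1 libraries by a small margin, as in 9.02% of all regions, with 16.9% apart either way. P56 overlapped both ages. Its log2 change from P1 to P56 was 0.17 ± 0.257 (SE, edgeR adjusted p = 0.733).

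Of 17 tested cell cycle inhibitors, 1 rose from P1 to P56 and 0 fell, against 1.72% of all regions that rose. The list's median was 0.28, and 4 genes had an unadjusted p below 0.05, against 21.6% of all regions. The mean level of the list was 30.2, 42.2 and 45.0 CPM in the P1 libraries and 40.2, 64.7 and 44.5 CPM in the P56 libraries. P1 replicate 1 and P56 replicate 2, the libraries at the ends of the cardiomyocyte marker range, stood apart, and the other P1 and P56 libraries overlapped. The one called was Btg2, an antiproliferative gene that p53 induces. It had 18.3, 33.6 and 30.5 CPM at P1, 40.0, 44.3 and 30.7 CPM at P14, and 36.1, 79.0 and 57.1 CPM at P56. Every P56 library exceeded every P1 library, as in 10.9% of all regions, with 24.1% apart either way. Btg2 had a log2 change of 1.09 ± 0.271 (SE, edgeR adjusted p = 0.0282). It lost the call without P1 replicate 1 (0.84, adjusted p = 0.107), P1 replicate 2 (1.25, 0.0577), P56 replicate 2 (0.77, 0.169) or P56 replicate 3 (1.10, 0.0661). With P1 replicate 1 and P56 replicate 2 removed together, the change was 0.50 (adjusted p = 0.277).

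The described Meis1 targets did not pass from P1 to P56. Cdkn1a, which encodes p21, had 68.7 ± 3.49 CPM (SD, n = 3) at P1 and 78.3 ± 11.3 at P56, a log2 change of 0.20 (edgeR adjusted p = 0.546). Cdkn2b, which encodes p15, had 24.0 ± 5.08 and 30.9 ± 6.50 CPM, a change of 0.40 (adjusted p = 0.37). Cdkn2a, which encodes p16 and p19Arf, had 34.0 ± 2.96 and 33.3 ± 10.4 CPM, a change of -0.03 (adjusted p = 0.964). Cdkn2a and Cdkn2b are neighbours on the genome.

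Of 17 tested calcineurin and hypoxia regulators, 1 rose from P1 to P56 and 0 fell, against 1.72% of all regions that rose. All 17 had a change above 0, and the median was 0.36, against 49.3% above 0 and a median of -0.01 over all regions. The mean level of the list was 39.0, 49.98 and 57.3 CPM in the P1 libraries and 52.2, 78.8 and 58.7 CPM in the P56 libraries. P1 replicate 1 was again the lowest and P56 replicate 2 the highest, and the other libraries of the 2 ages overlapped. The part of these libraries' marker levels in the list's values was not tested. The one called was Epas1, which encodes the hypoxia-inducible factor HIF-2alpha and is also prominent in endothelium. It had 21.3, 37.7 and 41.0 CPM at P1, 44.4, 33.7 and 43.0 CPM at P14, and 54.6, 98.6 and 52.4 CPM at P56. All P56 libraries exceeded all others. P56 lay wholly above P1 in 10.9% of all regions, with 24.1% apart either way. It lay wholly above P14 in 7%, with 14% apart either way. Epas1 had a log2 change from P1 to P56 of 1.07 ± 0.257 (SE, edgeR adjusted p = 0.0242). It lost the call without P1 replicate 1 (0.80, adjusted p = 0.102), P1 replicate 2 (1.16, 0.0646) or P56 replicate 2 (0.70, 0.171). With P1 replicate 1 and P56 replicate 2 removed together, the change was 0.43 (adjusted p = 0.322). From P1 to P14, 5 of the 17 genes were above 0, against 50% of all regions, and from P14 to P56 16, against 48.4%. From P14 to P56, 7 of the 17 had an unadjusted p below 0.05, against 10.1% of all regions. From P1 to P14 2 did, against 8.59%, and from P1 to P56 4, against 21.6%. From P1 to P14 and from P14 to P56, 0 of the 17 were called. Of all regions only 0.0119% and 0.00296% were, so these counts of 0 say little about the list. The endothelial marker list had a median of -0.11 from P1 to P56 with 0 of 8 called, against 2.53% of all regions. The cardiomyocyte list had a median of 0.83. Which cells the Epas1 values come from was not tested.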

How the data were processed

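ATAC-seq read counts of 9 cardiomyocyte libraries, 3 for each stage, were analysed as deposited. The authors deposited 2 tables of raw counts, 1 per TSS region of a width not stated and 1 per peak. The build was GRCm38 and the software included featureCounts 1.4.2, MACS 1.4.0, BWA 0.7.10, bedtools 2.26, bcl2fastq 2.17.1.14 and SAMtools 1.3.1, per the submitters' processing notes. Their roles, read filters and the pooling for peak calls are not given in the sources used here. Every row had a mean of at least 10 counts.

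Stages were compared with edgeR 4.0.16 (R 4.3.3): TMM scaling, the default filter (33747 TSS regions and 25885 peaks kept), 1 coefficient per stage over 9 libraries, quasi-likelihood F tests, two-sided, and Benjamini-Hochberg adjustment per comparison. The fits were tested on simulated counts. CPM used TMM factors; log2 CPM used a prior count of 2. Alternatives used limma 3.58.1, DESeq2 1.42.0 and other settings. Members and lists were chosen with earlier results of these data known. Named genes were all members, the 3 regions most like each, and list members past the threshold or else the 2 with the smallest p from P1 to P56, with Hoxb13, Cdkn1a, Cdkn2a and Cdkn2b added; marker lists are given as counts. Positions and promoters came from RefSeq GRCm38.p6.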

Additional observations from a re-analysis of the deposited data

How the results depend on the processing

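Each comparison was refitted under 20 alternatives, and the number of members called stayed at 0 except in 2 fits. Leaving out P1 replicate 1 with P56 replicate 2 called 2 members from P1 to P56 (Meis1 and Meis2) and 1 from P1 to P14 (Meis1). Another fit held a covariate for the part of all counts that falls in the highest 10% of regions. It called 1 member from P1 to P14 (Meis1, -1.85, edgeR adjusted p = 0.0415). With the covariate the P1 to P56 changes were -2.51 for Meis1 and -1.63 for Meis2 (edgeR unadjusted p = 4.51e-05 and 4.04e-05). Neither was called (adjusted p = 0.326 for both), where 0 of all regions were called. That covariate is itself higher at P56.

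Over all regions the count from P1 to P56, 853 as fitted, was 197 with loess offsets, 270 with a mean count of at least 20, 292 with DESeq2's Wald test, 185 with the 2 stages alone, 0 with the covariate, 88 at an adjusted p below 0.01, and 147 (without P56 replicate 2) to 1523 (without P56 replicate 1) with libraries left out. Library size alone gave 319 higher and 778 lower in place of 581 and 272, with an all-region median of -0.14, and DESeq2's Wald test gave 289 and 3. From P1 to P14 (4) it was 1 with loess, DESeq2 or limma-voom, 2 with the higher count minimum, 7 with 2 stages alone, 20 with the covariate, and 0 to 293 with libraries left out. From P14 to P56 (1) it was 11 with library size alone, 23 with 2 stages alone, 0 with DESeq2 size factors, the higher count minimum, limma-voom, the covariate or a threshold of 0.01, and 0 to 101 with libraries left out.

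Same-numbered libraries had deviations from their stage means that correlated at -0.07 to 0.22, with 1 of 9 pairs over 0.1. Pairs with different numbers ran from -0.27 to 0.25, with 1 of 18 over 0.1. Of 9 libraries, 5 correlated best with their own number. The labels give only the number, and whether same-numbered libraries share a batch was not tested. With the replicate number as a block, 1982, 12 and 76 regions were called in these comparisons, still 0 members in each.

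Signs turned in the following fits, and apart from Btg2 and Epas1 none of these changes was called as fitted. Between P1 and P56, Pbx3 was 0.016 with DESeq2 size factors, 0.014 with DESeq2's Wald test and 0.059 with limma-voom, and Meis3 was -0.11 with loess and -0.010 with the higher count minimum. From P14 to P56, Meis2 was -0.014 with library size alone, -0.060 with loess, -0.00142 with the higher count minimum and -0.55 with the covariate, which gave -0.66 for Meis1. The covariate gave, for P1 to P56, Tgif1 0.10, Hoxa9 0.30, Btg2 -0.24, Epas1 -0.15, Cdkn1a -0.24, Cdkn2a 0.79 and Cdkn2b -0.30, and loess gave Cdkn1a -0.034. The cause was not tested. The calls of Btg2 and Epas1 also ended with loess, the higher count minimum, the 2 stages alone or the named pair of libraries left out (0.50 and 0.43).

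With 1 library or the named pair left out, the P1 to P56 change ranged from -1.02 to 0.14 for Meis1, -0.00156 to 0.26 for Meis3, -0.21 to 0.18 for Pbx3, -0.23 to 0.076 for Pbx4 and -0.32 to 0.17 for Cdkn2a, and the P14 to P56 change from -0.18 to 0.74 for Meis1 and -0.27 to 0.26 for Meis2. Peaks ranged from -1.43 to 0.077 at the Meis1 start site, -0.53 to 0.067 at the 5' end of Meis2, -0.25 to 0.10 and -0.017 to 0.37 near Meis3, and -0.36 to 0.033 at Pbx3. Both Meis1 peaks described and the Meis2 peak deep in the gene have no value at the higher count minimum. Meis1 has 18 to 20 reads in each P14 library.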
